A study of Homo sapiens with 9 samples.

Results

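The 39 genes described here are established transcriptional targets of p53, followed in xenograft tumours of PC3, a human prostate cancer line known to carry no functional p53. They were chosen by name, as rows of the count tables that carry a listed symbol, and the rule uses no measured value. All 39 were among the 16008 genes counted in both count tables, and all 39 passed the filter on low counts in each comparison.

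The tumours were grown from PC3 cells in Matrigel under the flank skin of 11-week-old male NSG mice, a strain without T, B or NK cells, so the host still supplied stroma, vessels and myeloid cells. Once tumours reached 90 mm3, mice received PBS as vehicle or, at 5 mg/kg into the retro-orbital vein each week for 5 cycles, an antibody-drug conjugate. T-DXd (trastuzumab deruxtecan) binds HER2 and P-DXd (patritumab deruxtecan) binds HER3. Both carry DXd, an inhibitor of topoisomerase I. Age, volume and cycles are those of the series record. In the methods of the study, the sequenced tumours came from the experiment with both conjugates at 5 mg/kg. For that experiment the methods give another age, start volume and number of cycles. They give the values of the series record for a separate experiment with T-DXd alone at a higher dose. There were 3 tumours per group. Sample titles and the treatment field named opposite conjugates for all 6 treated libraries. Groups follow the titles here (P-DXd-titled, T-DXd-titled), and the columns of the count tables carry the same conjugate names as the titles. The conflict with the treatment field leaves the comparison of the 6 treated with the 3 PBS libraries untouched. Nothing in the labels names separate cultures or injections beyond an animal code, so p-values measure the spread between these 3 tumours per group, all from 1 cell line.

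In cells with working p53, DNA damage stabilises the protein, which binds DNA elements made of paired 10-base repeats and turns on genes for arrest, repair, death and metabolism. One target, MDM2, encodes the ligase that returns p53 to destruction, so the pathway carries its own brake. Many of these genes are also controlled by other stress factors, among them ATF4, AP-1 and the p53 relatives p63 and p73, so they can be transcribed in cells without p53.

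All 6 PC3 epithelial markers were present, with summed levels of 1935 to 2695 CPM (counts divided by the TMM-adjusted library total, on the usual scale of such units) in PBS and 3454 to 4021 CPM in treated tumours. Of 5 genes taken as lost or silent in PC3, 4 were listed nonetheless, and 2 of these 4 were called higher with both conjugates, so this list goes against the label in part. What its reads came from was not tested.

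Total counts ran from 54481702 to 125538606 per library, with the 3 highest totals in PBS. PBS replicate 1 stood apart from the other PBS libraries, with a chi-square statistic per gene of 316 and 388 against them, compared with 37.5 between replicates 2 and 3. P-DXd-titled replicate 2 stood apart in skeletal muscle markers. The summed level of 8 muscle markers was 1.94 to 37.7 CPM in PBS, 156 to 207 CPM in T-DXd-titled and 58.2 to 3259 CPM in P-DXd-titled tumours, with the highest value in that library, and MYH2 and TNNT3 were at 0 in at least 1 library. Macrophage markers, of which 7 of 12 were listed, summed to 7.55 to 9.17 CPM in PBS and 19.6 to 40.5 CPM in treated tumours. They did not all move together. With all 6 treated libraries as 1 group, 5 of the 7 were called higher and 1 lower, beside 15.2% and 17.1% of all genes. CD163, MRC1, TYROBP, C1QA and C1QC were not listed in both tables. Fibroblast markers summed to 1229 to 2222 CPM in PBS, 1345 to 2304 CPM in P-DXd-titled and 2221 to 2386 CPM in T-DXd-titled tumours. Of the 11 tested, 5 were called higher with the 6 treated libraries as 1 group, beside 15.2% of all genes. When each conjugate was fitted alone against PBS, P-DXd-titled tumours had 1 fibroblast marker called higher, beside 11.2% of all genes. T-DXd-titled tumours had 4, beside 13.1%. For the 6 endothelial markers listed of 8, the sum was 5.04 to 11.5 CPM in PBS and 6.54 to 11.7 CPM in treated tumours. Cycling markers summed to 1134 to 1906 CPM in PBS and 168 to 288 CPM in treated tumours, and 12 of 12 fell. The part of these shifts in the results below was not tested. In whole tumours, fewer cells of a type and less RNA per cell cannot be told apart.

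The first question was which p53 targets moved in treated tumours. With both conjugates against PBS, 12 of the 39 targets changed, at an adjusted p of at most 0.05 and a fold change of at least 1.5. GDF15, NINJ1, FUCA1, DRAM1, ORAI3 and PRKAB1 rose. PRDM1, DDB2, TP53I3, AEN, POLH and FDXR fell. The same 12 genes were called, in the same directions, when P-DXd-titled and then T-DXd-titled tumours were compared with PBS alone, comparisons that share their 3 PBS libraries. The other 27 targets were called in neither.

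These counts were near those of the whole tables. For both conjugates, 15.2% of 15070 tested genes were higher and 17.1% were lower, beside 6 and 6 of the 39 targets. For P-DXd-titled against PBS the shares over all genes were 11.2% higher and 13.8% lower. For T-DXd-titled against PBS they were 13.1% higher and 15.5% lower. The median log2 fold change of the 39 targets with both conjugates was 0.07, against -0.01 for all genes tested, and the median size without sign was 0.40 against 0.42. Both directions together, 30.8% of the targets and 32.2% of all genes tested were called with both conjugates.

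The 6 treated libraries lay wholly above the 3 PBS libraries for 14 targets and wholly below for 10, and they overlapped for 15. Over all genes tested, 26.2% lay wholly above and 24.4% wholly below.

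**Figure D1:**
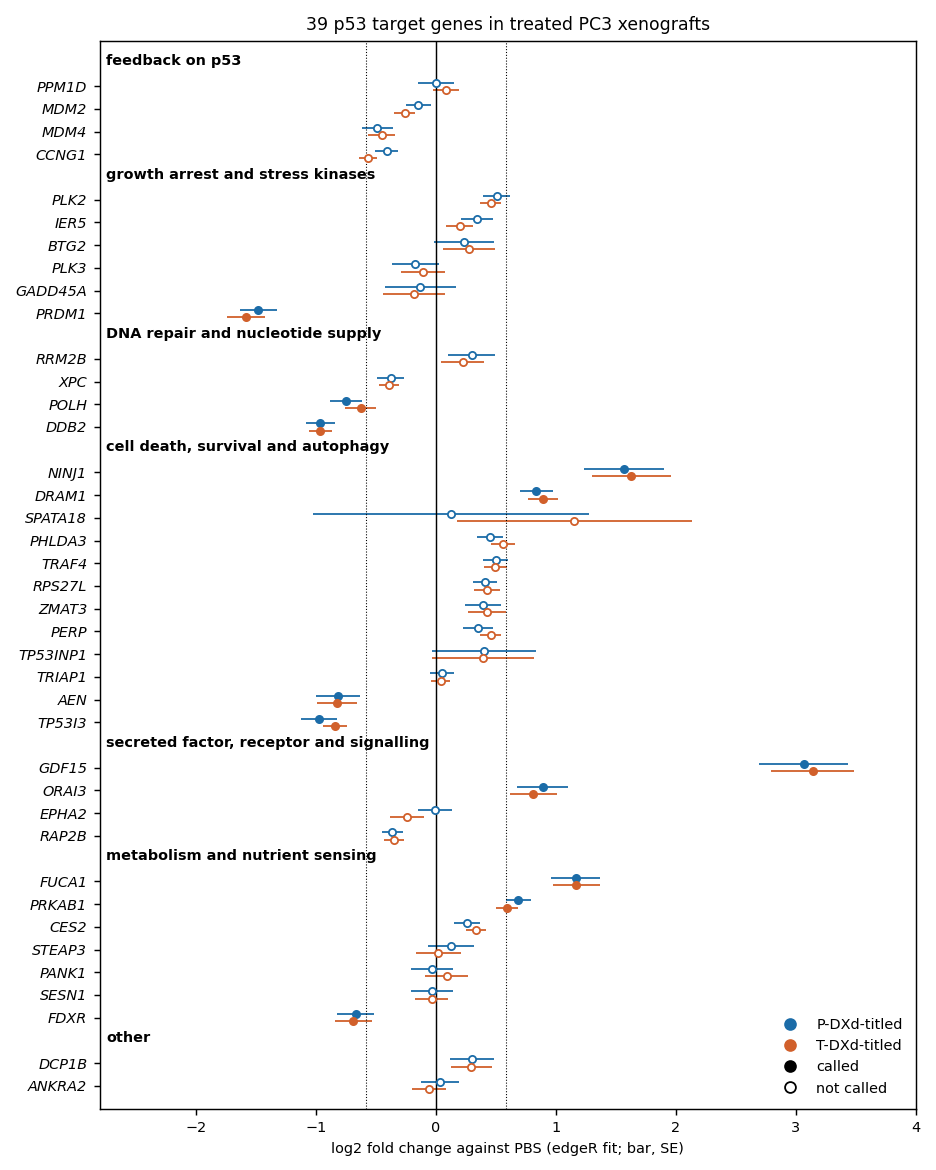
Log2 fold change against PBS (horizontal axis) of the 39 p53 targets, grouped by role, in P-DXd-titled (blue) and T-DXd-titled (orange) tumours, 3 libraries each. Points are fitted values, bars are SE, filled points passed the call and dotted lines mark a fold change of 1.5; GDF15 lies farthest right at 3.06 and 3.14 and PRDM1 farthest left at -1.48 and -1.58.

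Feedback on p53 held 4 targets, and 0 of them were called. MDM2, which encodes the ubiquitin ligase that degrades p53 (chromosome 12, 69201956 to 69239214 as the tables list it), was at 50.5, 51.5 and 47.0 CPM in PBS, at 48.3, 44.6 and 40.4 CPM in P-DXd-titled and at 43.3, 42.5 and 38.5 CPM in T-DXd-titled tumours. The P-DXd-titled values overlapped with PBS and the T-DXd-titled values lay below it. With both conjugates the log2 fold change of MDM2 was -0.21 (SE 0.08, adjusted p = 0.0399 by edgeR's quasi-likelihood test with Benjamini-Hochberg adjustment, as for each adjusted p below), below the fold minimum. MDM4, the MDM2 partner that blocks the activation domain of p53, was at 51.5 to 57.9 CPM in PBS and at 32.5 to 44.1 CPM in treated tumours without overlap (log2 fold change -0.48, SE 0.10, adjusted p = 0.00293). CCNG1, cyclin G1, which directs a phosphatase to MDM2, was at 64.3 to 69.4 CPM in PBS and 43.8 to 51.7 CPM in treated tumours (-0.50, SE 0.07, adjusted p = 0.000253). Both lay below PBS in every treated library, by less than the fold minimum. PPM1D, the WIP1 phosphatase that switches off damage signalling, was at 17.3 to 18.0 CPM in PBS and 15.1 to 21.1 CPM in treated tumours, with overlap (0.03, adjusted p = 0.81).

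Among 6 targets for growth arrest and stress kinases, 1 fell and 5 were not called. PRDM1, which encodes the transcriptional repressor BLIMP1 (chromosome 6, 106534195 to 106557814), was at 13.2, 16.1 and 16.4 CPM in PBS, at 5.46, 5.51 and 5.29 CPM in P-DXd-titled and at 5.76, 5.02 and 4.49 CPM in T-DXd-titled tumours. No treated library reached the lowest PBS library. PRDM1 was 2.9-fold lower with both conjugates (log2 fold change -1.54, SE 0.11, adjusted p = 4.63e-06), the largest fall among the 39.

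PLK2, a stress-induced polo-like kinase, was at 71.3 to 80.2 CPM in PBS and 95.7 to 120 CPM in treated tumours, without overlap, at a log2 fold change of 0.47 (adjusted p = 0.000897) that missed the fold minimum. IER5, an immediate early gene that acts on the heat shock factor HSF1, was likewise above PBS in every treated library, at 0.26 (adjusted p = 0.045). GADD45A, an adaptor in stress kinase signalling and repair, was at 202 CPM in PBS replicate 1 but at 102 and 108 CPM in the other PBS libraries. Its treated values, 96.6 to 159 CPM, overlapped with PBS, and the log2 fold change was -0.16 (SE 0.21, adjusted p = 0.531). BTG2, an antiproliferative cofactor of mRNA deadenylation, and PLK3, another stress kinase, overlapped with PBS, at 0.25 (adjusted p = 0.291) and -0.15 (adjusted p = 0.387).

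Of 4 targets in DNA repair and nucleotide supply, 2 fell and 2 were not called. DDB2 encodes the protein that first recognises ultraviolet lesions for nucleotide excision repair (chromosome 11, 47236493 to 47260767). DDB2 was at 34.8, 33.8 and 31.7 CPM in PBS, at 19.0, 16.4 and 15.5 CPM in P-DXd-titled and at 15.9, 17.9 and 17.5 CPM in T-DXd-titled tumours. The 2 sets of libraries were far apart, with a log2 fold change of -0.97 (SE 0.08, adjusted p = 1.04e-05). POLH, the polymerase that copies past ultraviolet lesions (chromosome 6, 43543887 to 43586701), was at 20.5, 16.7 and 17.2 CPM in PBS, at 11.1, 10.8 and 10.1 CPM in P-DXd-titled and at 12.3, 11.8 and 11.0 CPM in T-DXd-titled tumours. Every treated library was below every PBS library, at -0.69 (SE 0.10, adjusted p = 0.000203). Without PBS replicate 1, POLH was at -0.53 in T-DXd-titled tumours, below the fold minimum. POLH also overlaps GTPBP2 over 13649 bases, and strand use in counting is not stated, so reads of the 2 genes could not be separated with certainty.

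XPC, the other damage sensor of nucleotide excision repair, was at 48.4 to 54.2 CPM in PBS and 34.6 to 42.5 CPM in treated tumours without overlap, at -0.39 (adjusted p = 0.00136) and so below the fold minimum. RRM2B, the ribonucleotide reductase subunit used outside S phase, was at 46.0 to 77.9 CPM in PBS and 66.4 to 84.1 CPM in treated tumours, with overlap (0.25, adjusted p = 0.145).

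The DDB2 promoter is shown because it was the only member promoter with a pair of exact p53 decamer matches next to each other. The stretch lies at chr11:47214954-47215023 on the plus strand of GRCh38.p14, from 20 bases before to 50 bases after the RefSeq start site, and capitals mark the matches to the p53 decamer consensus.
DDB2: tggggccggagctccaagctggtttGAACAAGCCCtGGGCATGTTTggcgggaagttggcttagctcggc

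Cell death, survival and autophagy was the widest role, with 12 targets, of which 2 rose, 2 fell and 8 were not called. NINJ1, ninjurin-1, which ruptures the plasma membrane of dying cells (chromosome 9, 95883771 to 95896570), was at 9.68, 22.3 and 25.8 CPM in PBS, at 52.9, 56.1 and 61.3 CPM in P-DXd-titled and at 55.4, 60.9 and 62.6 CPM in T-DXd-titled tumours. The lowest treated library was above the highest PBS library. NINJ1 was 3.02-fold higher (log2 fold change 1.59, SE 0.25, adjusted p = 0.000366). Without PBS replicate 1, the lowest library, the log2 fold change of NINJ1 was 1.28.

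DRAM1, a lysosomal membrane protein that promotes autophagy (chromosome 12, 102271129 to 102405908), was at 77.8, 102 and 103 CPM in PBS, at 171, 153 and 176 CPM in P-DXd-titled and at 170, 171 and 183 CPM in T-DXd-titled tumours. The groups did not overlap, and DRAM1 was 1.81-fold higher (0.86, SE 0.10, adjusted p = 5.63e-05).

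TP53I3, a quinone oxidoreductase linked to oxidative stress (chromosome 2, 24300303 to 24308731), was at 48.5, 53.2 and 58.2 CPM in PBS, at 23.3, 32.2 and 25.3 CPM in P-DXd-titled and at 29.1, 28.9 and 31.2 CPM in T-DXd-titled tumours. It fell without overlap, at -0.91 (SE 0.11, adjusted p = 6.36e-05). Along its whole listed span of 8429 bases TP53I3 overlaps FAM228B. AEN, a nuclease of apoptotic cells (chromosome 15, 89164527 to 89175513), was at 56.5, 39.3 and 37.3 CPM in PBS, at 27.6, 25.5 and 21.6 CPM in P-DXd-titled and at 25.9, 23.7 and 25.5 CPM in T-DXd-titled tumours. PBS replicate 1 was the highest, and every treated library was below the lowest PBS value (-0.83, SE 0.13, adjusted p = 0.000342). Without PBS replicate 1 the log2 fold change of AEN was -0.61, and the call held.

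The promoter of AEN is shown as the second of 3 lowered targets with a p53 decamer match. The stretch is chr15:88621281-88621340 on the plus strand of GRCh38.p14, from 59 bases before the start site up to the start base itself (position 1), with the match in capitals.
AEN: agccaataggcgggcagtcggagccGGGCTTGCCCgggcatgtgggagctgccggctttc

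The remaining 8 targets of this role missed the fold minimum or the adjusted p. PHLDA3, an inhibitor of AKT, was at 217 to 258 CPM in PBS and 298 to 371 CPM in treated tumours (0.50, adjusted p = 0.000655). TRAF4, a signalling adaptor, was at 57.1 to 69.1 CPM in PBS and 86.4 to 93.7 CPM in treated tumours (0.49, adjusted p = 0.000273). For PERP, a junctional membrane protein and the most abundant target per kilobase in PBS at 144 ± 8.28 CPM per kb (SD, n = 3), PBS was at 577 to 644 CPM and treated tumours at 651 to 856 CPM (0.40, adjusted p = 0.00413). RPS27L, a ribosomal protein paralog, and ZMAT3, an RNA-binding regulator of splicing, were at 0.41 (adjusted p = 0.00198) and 0.40 (adjusted p = 0.0146). PHLDA3, TRAF4, PERP and RPS27L had every treated library above PBS, while ZMAT3 had 1 T-DXd-titled library, at 12.3 CPM, below the highest PBS library at 12.5 CPM. RPS27L resembles RPS27 closely and overlaps LACTB over 16190 bases, so its counts are uncertain.

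TRIAP1, a mitochondrial inhibitor of apoptosis, stayed within 32.2 to 37.1 CPM in all 9 libraries (0.04, adjusted p = 0.666). TP53INP1, a stress protein that acts in autophagy, was at 8.67 CPM in PBS replicate 1 and at 28.4 and 32.1 CPM in the other PBS libraries, beside 24.5 to 34.9 CPM in treated tumours (0.39, adjusted p = 0.311). SPATA18, which acts in mitochondrial quality control, was between 0 and 0.386 CPM, near the floor of 3 counts per library (0.0239 to 0.0551 CPM), and supports no statement on direction.

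The secreted, receptor and signalling role held the largest change among the targets. GDF15, a secreted stress cytokine that signals through GFRAL (chromosome 19, 18485541 to 18499986), was at 10.4, 27.6 and 24.5 CPM in PBS, at 209, 135 and 174 CPM in P-DXd-titled and at 174, 188 and 190 CPM in T-DXd-titled tumours. The groups were widely separated. GDF15 was 8.55-fold higher with both conjugates (log2 fold change 3.10, SE 0.29, adjusted p = 1.62e-05) and at 2.79 on the log2 scale without PBS replicate 1. ORAI3, a store-operated calcium channel subunit (chromosome 16, 30960387 to 30967782), was at 4.36, 5.36 and 6.93 CPM in PBS, at 9.40, 9.84 and 11.4 CPM in P-DXd-titled and at 10.04, 9.46 and 9.73 CPM in T-DXd-titled tumours. ORAI3 rose 1.8-fold without overlap (0.85, SE 0.15, adjusted p = 0.000793), from the lowest PBS level among the 12 called genes. EPHA2, a receptor tyrosine kinase, was abundant at 107 ± 18.3 CPM per kb (SD, n = 3) in PBS and overlapped with PBS after treatment (-0.13, adjusted p = 0.392). RAP2B, a small GTPase, was at 113 to 123 CPM in PBS and 88.1 to 99.8 CPM in treated tumours without overlap, at -0.36 (adjusted p = 0.000593) and below the fold minimum.

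The GDF15 promoter is shown because it belongs to the target that rose most. The whole RefSeq window is chr19:18385908-18386207 on the plus strand of GRCh38.p14, from 250 bases before to 50 bases after the start site. It held 0 exact matches to the p53 decamer or to the other motifs searched (named below), so no letters are in capitals. A decamer with any mismatched base was not counted, so a p53 element with mismatches in this window would be missed.
GDF15: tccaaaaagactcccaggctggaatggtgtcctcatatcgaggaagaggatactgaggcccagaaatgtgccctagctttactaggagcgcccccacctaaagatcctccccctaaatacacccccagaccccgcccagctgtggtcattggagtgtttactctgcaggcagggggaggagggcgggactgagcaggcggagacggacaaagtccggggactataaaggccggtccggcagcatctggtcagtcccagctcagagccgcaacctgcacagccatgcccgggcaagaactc

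Metabolism and nutrient sensing held 7 targets, of which 2 rose, 1 fell and 4 were not called. FUCA1, the lysosomal fucosidase (chromosome 1, 24171567 to 24194784), was at 23.9, 37.4 and 40.9 CPM in PBS, at 81.0, 66.4 and 79.7 CPM in P-DXd-titled and at 72.2, 76.0 and 81.6 CPM in T-DXd-titled tumours. It rose 2.23-fold without overlap (1.16, SE 0.15, adjusted p = 0.000127). PRKAB1, a regulatory subunit of the energy sensor AMPK (chromosome 12, 120105558 to 120119435), was at 29.2, 26.4 and 27.7 CPM in PBS, at 45.4, 41.2 and 46.3 CPM in P-DXd-titled and at 44.2, 39.5 and 41.7 CPM in T-DXd-titled tumours. Its 1.55-fold rise was just past the minimum (0.63, SE 0.08, adjusted p = 7.04e-05). In T-DXd-titled tumours the rise was 0.59, and it missed the minimum without PBS replicate 2 (0.56), without T-DXd-titled replicate 1 (0.55) or with counts thinned to the smallest library (0.58).

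FDXR, a mitochondrial ferredoxin reductase (chromosome 17, 72858619 to 72869156), was at 51.3, 36.6 and 36.5 CPM in PBS, at 24.98, 26.3 and 26.2 CPM in P-DXd-titled and at 23.9, 25.8 and 27.4 CPM in T-DXd-titled tumours. Treated libraries were all below PBS (-0.69, SE 0.11, adjusted p = 0.000395). Without PBS replicate 1, the highest library, the log2 fold change of FDXR was -0.50 (adjusted p = 9.17e-05) and the call was lost to the fold minimum. CES2, a carboxylesterase, was at 34.7 to 37.9 CPM in PBS and 40.3 to 48.2 CPM in treated tumours (0.29, adjusted p = 0.00893), below the fold minimum. SESN1, a sestrin that restrains mTORC1, PANK1, the first enzyme of coenzyme A synthesis, and STEAP3, an endosomal iron reductase, overlapped with PBS at -0.04, 0.02 and 0.07, with adjusted p of 0.773, 0.902 and 0.695.

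The FDXR promoter is the third shown with a decamer match, at chr17:74872971-74873030 on the minus strand of GRCh38.p14, from 36 bases before to 24 bases after the start site.
FDXR: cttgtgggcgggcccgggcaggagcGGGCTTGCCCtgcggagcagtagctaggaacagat

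The last 2 targets were not called. ANKRA2, an ankyrin repeat adaptor, was at 10.4 to 13.6 CPM in PBS and 10.8 to 13.5 CPM in treated tumours (-0.02, adjusted p = 0.895). DCP1B, a cofactor of mRNA decapping, was at 5.15 to 7.04 CPM in PBS and 7.06 to 8.33 CPM in treated tumours (0.29, adjusted p = 0.0738), without overlap. Like POLH, TP53I3 and RPS27L, the targets MDM2, PLK3, XPC, TP53INP1, ANKRA2 and DCP1B overlap another listed gene, so reads in the shared bases could belong to either gene.

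**Figure D2:**
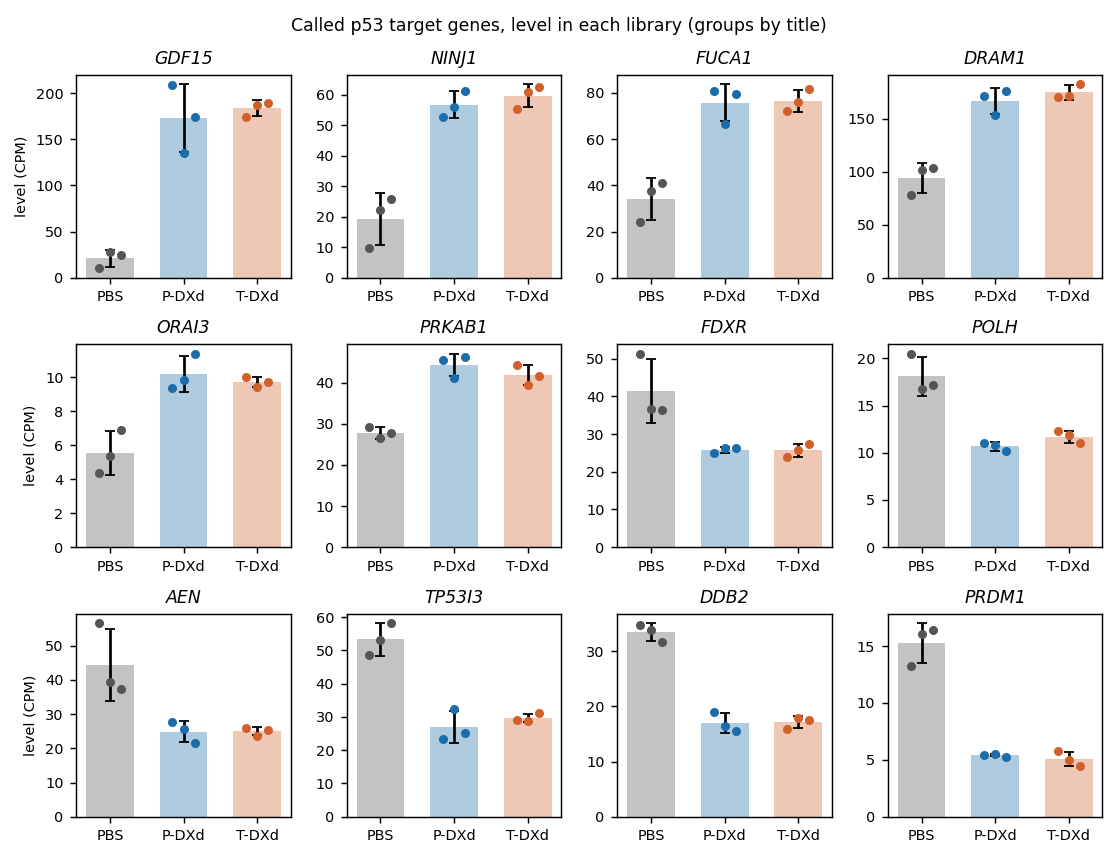
Level (CPM) in each library of the 12 targets called with both conjugates against PBS, ordered by log2 fold change; dots are libraries, bars are means and error bars are SD (n = 3). For GDF15 the PBS dots reach 27.6 CPM and the treated dots start at 135 CPM, and for PRDM1 the PBS dots start at 13.2 CPM and the treated dots reach 5.76 CPM.

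Calls close to the thresholds depended on single libraries when each conjugate was fitted on its own. In P-DXd-titled tumours, 12 targets were called with all libraries and 9 without P-DXd-titled replicate 2, the library with high muscle markers, where AEN (adjusted p = 0.0523), ORAI3 (0.0551) and FDXR (0.0543) missed the threshold. Without P-DXd-titled replicate 3, 8 were called, and the log2 fold changes of AEN, NINJ1, ORAI3 and FDXR there were -0.72, 1.52, 0.81 and -0.67. FDXR also missed the threshold in P-DXd-titled tumours without replicate 1 of that group (adjusted p = 0.0608), and in T-DXd-titled tumours without replicate 1 (0.056) or replicate 2 (0.0512) of that group; without PBS replicate 1 its log2 fold change was -0.49 and -0.51 in the 2 comparisons. ORAI3 missed it without PBS replicate 2 (adjusted p = 0.0651 for P-DXd-titled and 0.0516 for T-DXd-titled tumours) and in T-DXd-titled tumours without any 1 of their libraries (0.0535 to 0.0592). With both conjugates, 12 were called without P-DXd-titled replicate 2 and 11 without PBS replicate 1.

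PBS replicate 1 held the lowest PBS value for 20 targets and the highest for 17, out of 39. Without it, 9 of the 12 called genes had a smaller log2 fold change and 3 a larger one. The median coefficient of variation of the targets was 12.4% for PBS, 10.3% for P-DXd-titled and 6.15% for T-DXd-titled tumours.

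**Figure D3:**
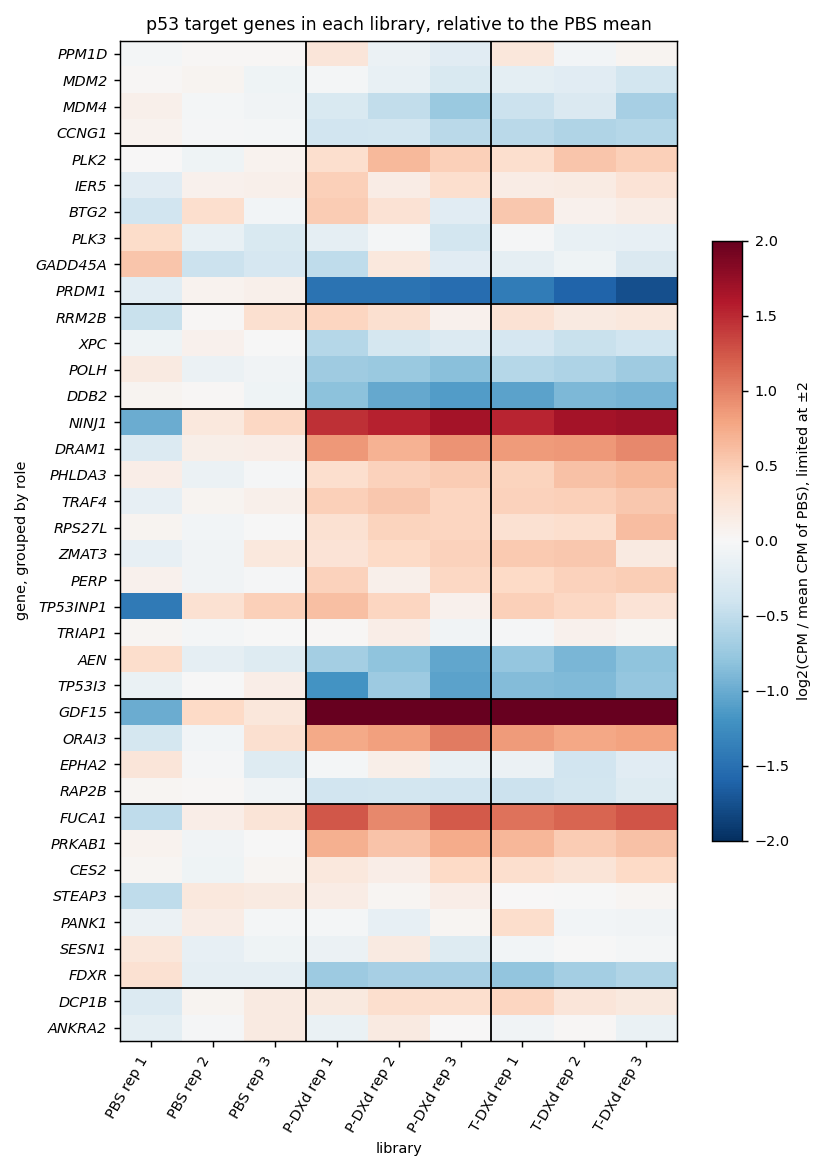
Log2 ratio of each library's CPM to the PBS mean for 38 of the 39 targets (rows, by role; SPATA18 is left out for its near-zero counts) in the 9 libraries (columns). Red is above and blue below the PBS mean, with colours limited at 2 either way, and PBS replicate 1 is visibly apart in TP53INP1 at 8.67 CPM, GDF15 at 10.4 CPM and NINJ1 at 9.68 CPM.

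The second question was whether the targets differed between the conjugates. Over all genes, 4 of 14653 (0.0273%) were called between P-DXd-titled and T-DXd-titled tumours by edgeR's quasi-likelihood test, and 0 of the 39 targets were, also by DESeq2. EPHA2 alone had an unadjusted p under 0.05 (0.0365), at a log2 fold change of 0.22 with P-DXd-titled higher (adjusted p = 0.9998). For 38 targets, all but SPATA18, the difference lay between -0.14 and 0.22, and its 95% interval stayed between -0.49 and 0.42, inside a fold change of 1.5 (0.58) either way. For GDF15 the interval was -0.38 to 0.20, and for MDM2 it was -0.09 to 0.29. CCNG1 had P-DXd-titled libraries wholly above the T-DXd-titled ones, but by a very narrow gap. The nearest libraries were at 14.68 and 14.67 CPM per kb, and the log2 fold change was 0.15 (unadjusted p = 0.0728). The share of all genes separated in this way is not given here. SPATA18, at -1.02 with an interval of -2.35 to 0.30, was too low in counts for a statement. These intervals bound the difference between the titled groups and do not show that the conjugates act alike.

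The wider pathway was followed in 37 other genes of p53 signalling, all counted and tested. With both conjugates 4 rose and 12 fell, against 4 and 10 for P-DXd-titled and 4 and 11 for T-DXd-titled tumours. Over all genes tested, 15.2% rose and 17.1% fell with both conjugates. The shares were 11.2% and 13.8% for P-DXd-titled, and 13.1% and 15.5% for T-DXd-titled tumours. CDKN1A, which encodes the cell cycle inhibitor p21 and is the best known p53 target, was at 101, 151 and 160 CPM in PBS, at 152, 148 and 139 CPM in P-DXd-titled and at 137, 150 and 142 CPM in T-DXd-titled tumours. Its treated values lay within the PBS range, at a log2 fold change of 0.08 (SE 0.12, adjusted p = 0.612).

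The 3 largest changes among these genes were falls. CHEK1, the checkpoint kinase downstream of ATR, was at 58.2 to 110 CPM in PBS and 13.9 to 21.4 CPM in treated tumours (-2.16, SE 0.20, adjusted p = 1.65e-05). SFN, the 14-3-3 sigma protein, was at 333 to 872 CPM in PBS and 143 to 185 CPM in treated tumours (-1.66, SE 0.25, adjusted p = 0.000288), and APAF1, the apoptosome scaffold, was at 15.5 to 21.0 CPM in PBS and 5.25 to 7.96 CPM in treated tumours (-1.36, SE 0.15, adjusted p = 4.78e-05). The SFN value of PBS replicate 1, 872 CPM, was far above 367 and 333 CPM in the other PBS libraries. Without PBS replicate 1 the log2 fold change of SFN was -1.07, smaller in size than that of APAF1 at -1.21, and CHEK1 was at -1.78. CHEK1 overlaps ACRV1 over 4734 bases and STT3A over 75 bases, and APAF1 overlaps ANKS1B over 8970 bases. Reads in those bases could belong to either gene.

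The 4 that rose, named after their values were seen, were BBC3, the pro-death protein PUMA (1.15), SESN2, a stress sestrin (1.03), COP1, a ubiquitin ligase (0.92), and KITLG, the KIT ligand (0.60). KITLG missed the fold minimum without PBS replicate 1 (0.55), without P-DXd-titled replicate 1 (0.58) or without T-DXd-titled replicate 1 (0.57). COP1 was at 0.71 without P-DXd-titled replicate 2, where it was highest (42.5 CPM). With P-DXd-titled tumours alone against PBS, COP1 was called at 1.09 and missed the threshold without that library (0.64, adjusted p = 0.0799). In the fits of a single conjugate, SFN, SESN2 and KITLG also lost calls when 1 library was left out, SFN without any 1 treated library (adjusted p = 0.0509 to 0.0536 for P-DXd-titled and 0.0502 to 0.0614 for T-DXd-titled tumours). Of the p53 relatives, TP63 was at 53.3 to 108 CPM in PBS and 37.9 to 48.1 CPM in treated tumours (-0.82, adjusted p = 0.00302). PBS replicate 1 held the TP63 value of 108 CPM, beside 63.2 and 53.3 CPM in the other PBS libraries. The log2 fold change of TP63 without PBS replicate 1 is not given here, so its call may rest on that library. TP73 was at 1.79 to 3.33 CPM in all libraries (0.07, adjusted p = 0.791). BAX, a pore-forming death protein, was at -0.25 (adjusted p = 0.00977), below the fold minimum.

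**Figure D4:**
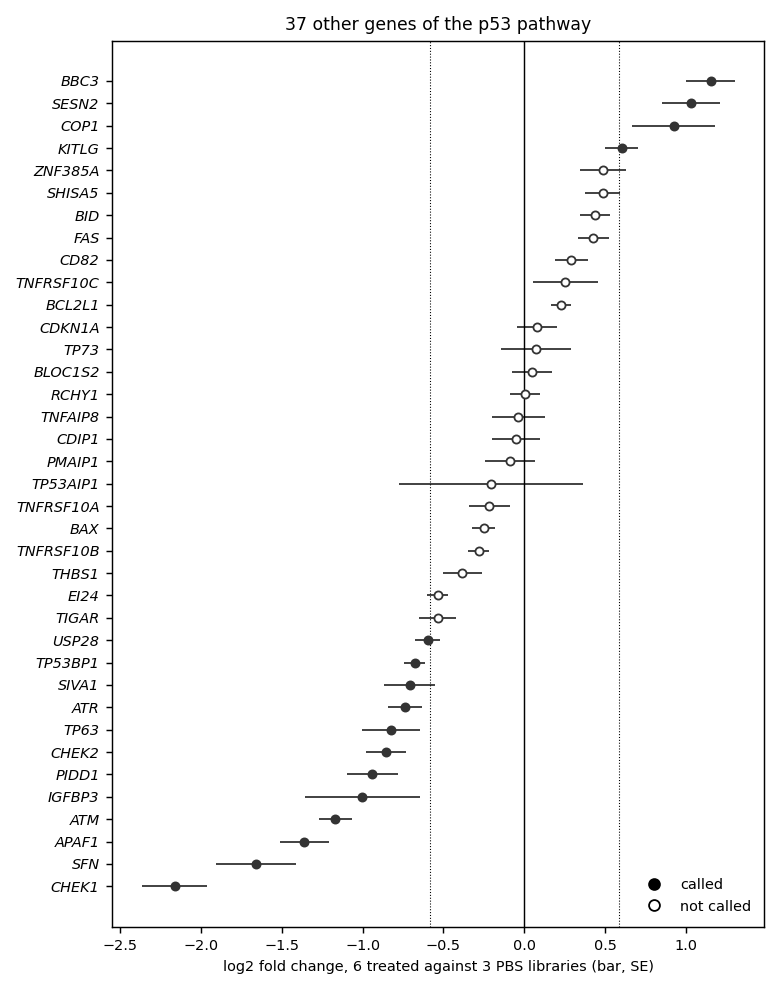
Log2 fold change (6 treated against 3 PBS libraries, horizontal axis; bar, SE) of 37 other p53 pathway genes, ordered by value, with filled points called and dotted lines at a fold change of 1.5. There are 4 filled points on the right, led by BBC3 at 1.15, and 12 on the left, ending in CHEK1 at -2.16, while CDKN1A sits at 0.08.

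Promoters were then compared by letters. RefSeq windows on GRCh38.p14, from 250 bases before to 50 bases after a start site, were available for 35 of the 39 targets in 47 windows, and for 27305 genes in all. GADD45A, PHLDA3, TP53INP1 and RRM2B had no window. The p53 decamer consensus, 1 repeat of the paired element and its own reverse complement, matched in 8 of 35 targets (22.9%) and in 8.06% of all genes. These 8 were AEN, DDB2 and FDXR, which fell, and PANK1, PLK2, RAP2B, RPS27L and SESN1, which were not called. Of the 6 targets that rose, 0 had an exact match in these windows. With so few genes and no mismatch allowed, no difference between raised and other targets can be read from this. A pair of matches up to 13 bases apart was found in DDB2 and in 10 of 27305 genes (0.0366%). The stretches of RAP2B (chr3:153162140-153162199, plus strand), PLK2 (chr5:58460184-58460243, minus strand) and SESN1 (chr6:109009003-109009062, minus strand) are shown to set matches of uncalled targets beside those of DDB2, AEN and FDXR.
RAP2B: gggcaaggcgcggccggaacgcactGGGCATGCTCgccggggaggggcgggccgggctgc
PLK2: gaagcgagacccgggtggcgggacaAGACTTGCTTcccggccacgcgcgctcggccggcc
SESN1: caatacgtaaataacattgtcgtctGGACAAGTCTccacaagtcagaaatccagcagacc

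Other motifs were searched on both strands of the same windows. TGACGTCA, the cyclic AMP response element, was found in EPHA2 and PPM1D (5.71% of targets and 2.25% of all genes). TGANTCA, a loose form of the AP-1 element with any middle base, was found in MDM2, PANK1, PERP and PRDM1 (11.4% and 9.37%). The PANK1 match was TGAATCA, outside the usual AP-1 form with C or G in the middle. TGATGNAA, the core of the ATF4 element, was found in PLK3 (2.86% and 4.46%), and CACGTG, the E-box, in AEN (2.86% and 8.77%). TTTGAA, the core of the cell cycle homology region, was found in CES2, DDB2, MDM4, PANK1, PRDM1 and ZMAT3 (17.1% and 18.2%), and in the DDB2 stretch it overlaps the first decamer match. These are exact letter matches within short windows, with no binding measured, and many p53 elements lie outside such windows. Elements with mismatched bases inside the windows were not counted, so a window without a match may still hold a p53 element.

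By level per kilobase of exon in PBS, the targets ranged from PERP at 144, EPHA2 at 107, PHLDA3 at 72.7 and GADD45A at 71.3 CPM per kb to SPATA18 at 0.0289. The length was the union of all annotated exons of a gene, which can exceed its main transcript, so the order of genes is approximate. GADD45A and PHLDA3 could not be ordered beyond their spread (SD 29.1 and 6.35, n = 3). GDF15 stood at 9.98 ± 4.38 CPM per kb in PBS tumours. With treatment it stood at 82.9 ± 17.7 CPM per kb for P-DXd-titled and 88.1 ± 4.02 CPM per kb for T-DXd-titled tumours (SD, n = 3), between the PBS levels of PHLDA3 and EPHA2.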

How the data were processed

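RNA from 9 PC3 xenografts (3 PBS, 3 P-DXd-titled, 3 T-DXd-titled) was sequenced from TruSeq mRNA libraries. Per the labels and the study's methods, the authors used Cutadapt for trimming, STAR for alignment to GRCh38.p13 and featureCounts for gene counting, and deposited the raw counts. Removal of mouse reads and use of strand are not given in the sources used here. The coordinates in the tables are not those of GRCh38 and are printed as listed. The tables name no build. No column of per-sample values was left unused.

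Counts of all genes were tested in R 4.3.3 with edgeR 4.0.16: filterByExpr, TMM scaling, the two-sided quasi-likelihood test and Benjamini-Hochberg adjustment over all genes tested. A gene was called at an adjusted p of at most 0.05 and a fold change of at least 1.5. Each conjugate was compared with PBS, and the conjugates with each other, on 6 libraries; both conjugates were compared with PBS on 9. The SE was taken as the log2 fold change over the root of F. Levels are CPM, divided for levels per kb by the union length of all GENCODE v44 exons of a gene. Depth, 54481702 to 125538606 counts, gives a floor of 3 counts or 0.0239 to 0.0551 CPM, for counting error only. The method was tested on simulated data.

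Every target is named in its role, with the value in each library for called targets and MDM2; of 37 other pathway genes, CDKN1A and the 3 largest called changes were named by rule, the rest after their values were seen. Some genes of the pathway and marker lists are not reported here. The targets, roles and lists were chosen with earlier results of these data known. Alternatives were DESeq2 1.42.0, RLE size factors, no filter, a minimum of 10 counts in each library, no fold minimum, glmTreat, thinned counts, all 9 libraries in 1 fit, a block on the digit in the animal code and leaving out each library. Leaving out PBS replicate 1 and P-DXd-titled replicate 2 together was added after seeing the data. Promoter windows came from RefSeq (GRCh38.p14).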

Additional observations from a re-analysis of the deposited data

How the results depend on the processing

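The count of called targets was 12 in each comparison with PBS and 0 between the conjugates. Without a fold minimum it was 20 in P-DXd-titled, 23 in T-DXd-titled and 25 with both conjugates. Testing against a fold change of 1.5 with glmTreat left 3, 7 and 7. The shares of all genes called at these 2 settings are not given here. These counts therefore do not show whether the targets moved more often than other genes. Leaving out 1 library at a time gave 8 to 12, 10 to 13, 11 to 12 and, between conjugates, 0 to 0. DESeq2, RLE size factors, no filter, at least 10 counts in every library and all 9 libraries in 1 fit (not applicable to both conjugates) each gave 12, 12 and 12, and thinning gave 12, 11 and 12. Leaving out PBS replicate 1 and P-DXd-titled replicate 2 together, chosen after seeing the data, gave 11 in P-DXd-titled and 11 with both conjugates. With both conjugates, POLH (-0.58) and FDXR (-0.50) fell below the fold minimum there, so those 11 were not all among the 12. No log2 fold change of a named called gene reversed under any of these. With both conjugates, glmTreat lost the calls of POLH, AEN, ORAI3, FDXR and PRKAB1.

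The replicate block on the digit in the animal code gave 12, 12, 12 and 0 called targets. Of the other pathway genes named, COP1 lost its call in P-DXd-titled tumours (adjusted p = 0.051) and SFN in T-DXd-titled tumours (adjusted p = 0.0504) under this block. Libraries sharing a digit had deviations correlated from -0.10 to 0.20, so the digit was not taken as a pairing.

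Limits: 3 tumours per group, 1 cell line, host reads of unknown share, and conjugate names in conflict between titles and treatment fields. Depth limits SPATA18; the cause of differences between settings was not tested.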

Other observations

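The span of the called genes, as the tables list it, had a median of 14.2 kb for the targets that rose, 17.3 kb for those that fell and 23.4 kb for those not called, against 32.1 kb over all genes tested. In 3 of the 39 targets the fitted change from PBS had opposite signs for the 2 titled groups, comparisons that share the PBS libraries. COP1 was at 42.5 CPM in P-DXd-titled replicate 2 and at 16.5 and 23.7 CPM in the other P-DXd-titled tumours, and IGFBP3, a secreted binder of insulin-like growth factors, was at 58.2 CPM in PBS replicate 1 and at 257 and 283 CPM in the other PBS tumours.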
